A study of Homo sapiens and Mus musculus with 213 samples.

Results

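Expression of 10 imprinted genes was followed in HEK293T cells, an immortalized line from human embryonic kidney, in an unedited line and in a line edited at the MYC promoter. The genes were H19, IGF2, MEG3, DLK1, PEG3, PEG10, NDN, MEST, GRB10 and PHLDA2, taken by name, and each matched 1 of the 58336 gene identifiers in the RNA-seq data. Each of the lines compared had 3 libraries, numbered by the labels as biological replicates. In MYC WT cells the promoter kept its natural G-quadruplex motif, a guanine-rich stretch of DNA that folds into a 4-stranded structure. In MYC MUT cells (HEK293T_MutMYCG4) point mutations in the runs of guanine prevented this folding. The edited line was made by CRISPR and carried the edit on every allele, from sorted single cells, whereas the unedited line was not described as a clone, and how many clones stood behind the RNA libraries was not given in the sources used here. The comparison therefore describes these lines, and the p-values measure only the spread between libraries of a line.

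Imprinted genes are transcribed mainly or only from the maternal or the paternal chromosome, in at least some tissues. This follows DNA methylation laid down in the germ line at imprinting control regions. They lie in clusters in which a noncoding RNA is often read from 1 parental chromosome and the protein-coding genes from the other. Many act on fetal and placental growth. IGF2, DLK1, PEG3, PEG10, NDN and MEST are known as paternally expressed genes, and H19, MEG3 and PHLDA2 as maternally expressed ones, while the parental origin of GRB10 transcripts depends on the tissue. The data count reads per gene and do not tell the alleles apart, so they show the level of a gene and not which chromosome it came from.

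RefSeq sequences of the region just before the transcription start were at hand for 5 of the 10 genes (build GRCh38.p14). The 250 bases upstream of H19, a called member with an entry, and of MEG3 and NDN, which had no read in any library, are shown with each CG dinucleotide, the site of DNA methylation, in capitals. For MEG3 the most upstream of 3 entries is given. The H19 and MEG3 windows overlap exons of longer noncoding transcripts of the same genes in GENCODE.
H19, chr11:2001267-2001516, minus strand: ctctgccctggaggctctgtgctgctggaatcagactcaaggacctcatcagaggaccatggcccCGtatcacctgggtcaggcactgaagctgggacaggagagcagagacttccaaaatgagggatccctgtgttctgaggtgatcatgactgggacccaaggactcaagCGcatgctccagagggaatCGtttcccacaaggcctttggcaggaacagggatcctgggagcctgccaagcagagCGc
MEG3, chr14:100825858-100826107, plus strand: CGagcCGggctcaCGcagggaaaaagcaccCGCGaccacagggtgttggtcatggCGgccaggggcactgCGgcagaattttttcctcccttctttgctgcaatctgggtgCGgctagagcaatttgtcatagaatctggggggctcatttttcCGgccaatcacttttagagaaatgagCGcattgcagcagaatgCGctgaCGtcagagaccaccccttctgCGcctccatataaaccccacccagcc
NDN, chr15:23687306-23687555, minus strand: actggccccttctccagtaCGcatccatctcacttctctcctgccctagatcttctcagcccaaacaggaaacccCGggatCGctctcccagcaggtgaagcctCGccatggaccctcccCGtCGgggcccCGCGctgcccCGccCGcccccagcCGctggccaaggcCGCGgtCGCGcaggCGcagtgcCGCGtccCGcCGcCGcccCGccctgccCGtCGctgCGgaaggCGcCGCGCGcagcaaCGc
The H19 window held 4 CG dinucleotides, the MEG3 window 13 and the NDN window 30, beside a median of 11 over the 35116 windows of the same length in the table. Searched on both strands, the hexamer TGCCGC, the sequence bound by the imprint-protecting zinc finger protein ZFP57 when methylated, occurred 0 times in the H19 window, 1 time in the MEG3 window and 1 time in the NDN window, and 12.7% of all windows held it. H19 RNA is also the host of miR-675, whose mature forms (RefSeq, chromosome 11, minus strand) are shown with the seed, bases 2 to 8, in capitals.
hsa-miR-675-5p, chr11:1996800-1996822: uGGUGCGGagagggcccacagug
hsa-miR-675-3p, chr11:1996768-1996787: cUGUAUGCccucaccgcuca
Poly(A)-selected libraries do not measure these mature forms, and the MIR675 gene had 0 reads.

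The libraries held 68170323 to 79913764 reads on genes. Values are the authors' normalized counts, that is, reads divided by a size factor of the library. MYC itself, the edited gene, had 20020.3, 28396 and 21580.1 normalized counts in MYC WT and 10693, 11176 and 12399.8 in MYC MUT, where it fell to 49% of the MYC WT mean (log2 fold change -1.02, SE 0.19, adjusted p = 0.00182, limma). All 8 genes used as markers of HEK293T cells, among them VIM and EYA1, had reads in every library, and their summed level ran from 78549.8 to 93241. By the rule given below, which called 21.4% of all tested genes, 5 of these 8 were called, PAX2, LHX1, NEFL and KRT8 higher in MYC MUT and NEFM lower. The call of PAX2 (limma adjusted p = 0.046) held in 10 of 17 alternatives, with an adjusted p of up to 0.138. Replicate 1 of MYC WT stood apart from the other libraries of its line on the third principal component, and the counts of imprinted genes below are also given without it. MYC WT headers carry a sequencing pool tag that the MYC MUT headers lack. Whether the lines were sequenced in different pools could not be settled, and if they were, pool and line cannot be told apart.

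The 10 genes spanned a wide range of expression. Per exon length, the order was GRB10, PHLDA2, then H19 and PEG10, then IGF2 and MEST, with PEG3, DLK1, MEG3 and NDN at or near 0. In MYC WT, GRB10 stood at 13.8 ± 2.76 RPKM (reads per kilobase of exon, scaled to the reads on genes of the library), PHLDA2 at 1.94 ± 0.702, H19 at 0.148 ± 0.0332, PEG10 at 0.0912 ± 0.00265, IGF2 at 0.00563 ± 0.00047 and MEST at 0.00547 ± 0.00241 (SD, n = 3). IGF2 and MEST did not differ beyond their spread in MYC WT on this scale. In MYC MUT the order was the same, with GRB10 at 10.9 ± 1.22, PHLDA2 at 3.69 ± 0.194, H19 at 0.346 ± 0.0147, PEG10 at 0.234 ± 0.0205, IGF2 at 0.0425 ± 0.000716 and MEST at 0.0128 ± 0.00848 RPKM.

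**Figure D1:**
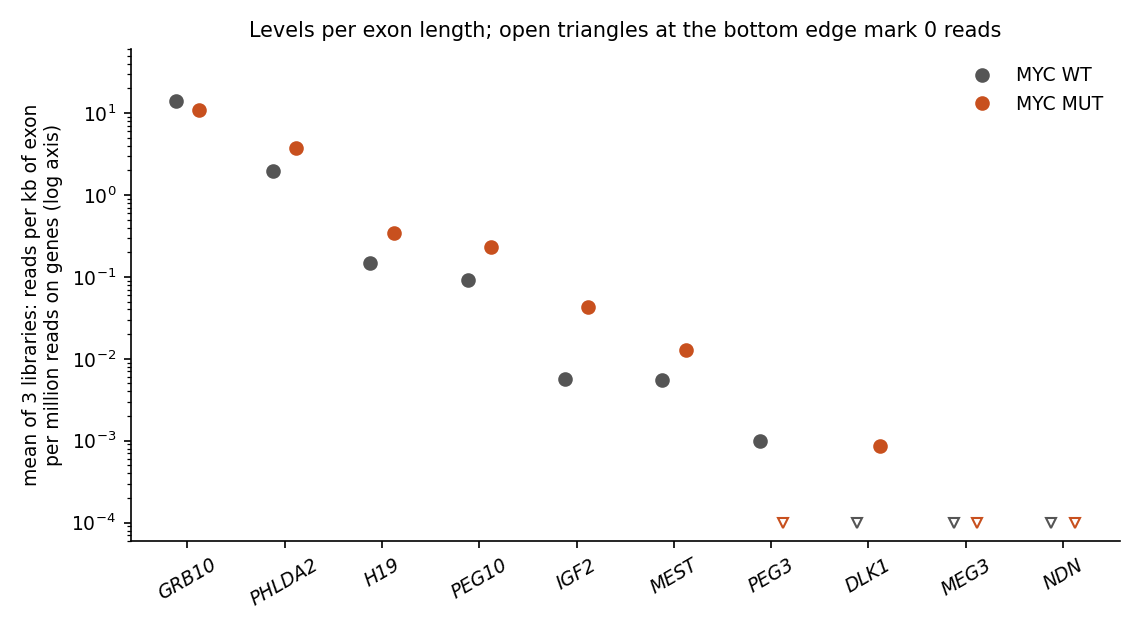
Mean level of the 10 imprinted genes over the 3 libraries of each line, in RPKM, on a log axis. GRB10 lies above 10 in both lines. Open triangles mark lines with 0 reads, which holds for both lines in MEG3 and NDN.

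Genes with a mean of at least 10 normalized counts over the 9 RNA-seq libraries of the study were tested, 20884 in all, on log2(normalized count + 1) with limma. A gene was called when its Benjamini-Hochberg adjusted p over all tested genes was under 0.05 and its log2 fold change was beyond 0.5 in size. The pseudocount of 1 understates the change of low genes. Of the 10 members, 4 passed the filter, namely H19, PEG10, GRB10 and PHLDA2. In MYC MUT against MYC WT, 3 of these 4 were called and all 3 rose, where 21.4% of all tested genes were called, 11.3% higher and 10.1% lower. The median log2 fold change of the 4 was 1.03, and that of all tested genes was within 0.01 of 0. Without replicate 1 of MYC WT, 4 of the 4 were called, GRB10 being added. The count over all tested genes also rose there, to 4942 from 4476.

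**Figure D2:**
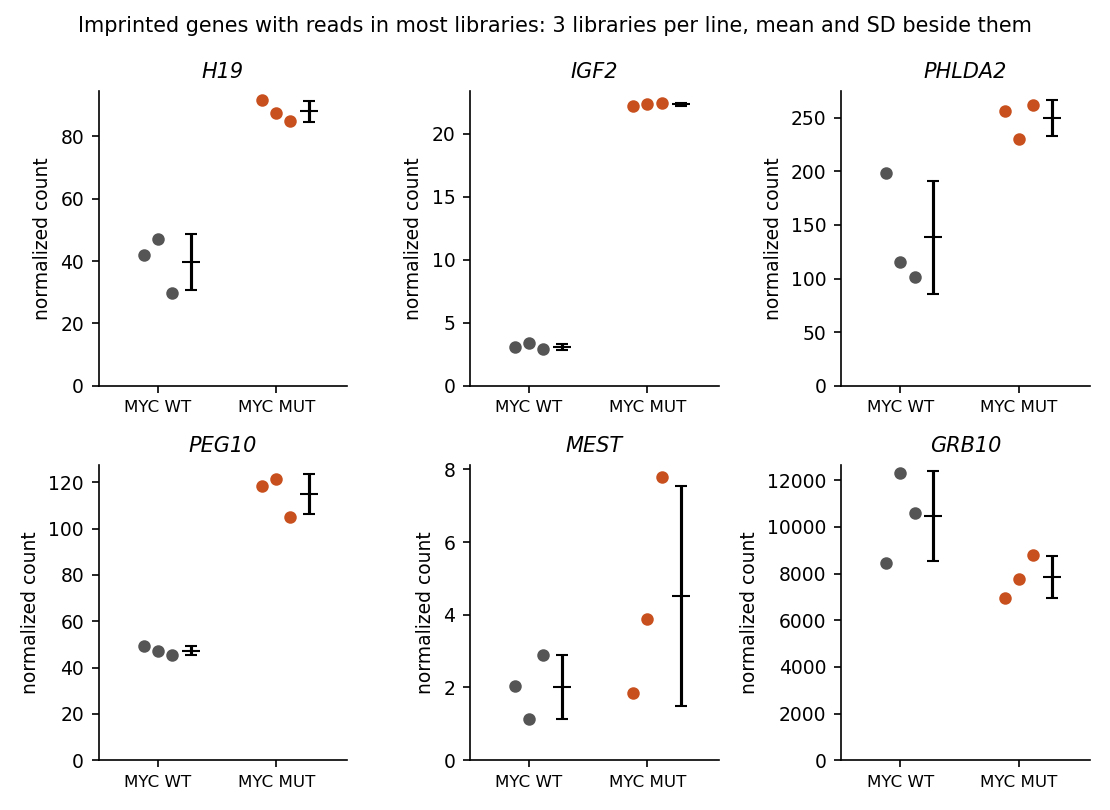
Normalized counts of 6 imprinted genes in each library of MYC WT and MYC MUT (dots, 3 per line), with the line's mean and SD beside them on axes that start at 0. The 3 MYC MUT libraries lie above all MYC WT libraries for H19, IGF2, PHLDA2 and PEG10, and overlap them for MEST and GRB10.

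H19, a maternally expressed long noncoding RNA on chromosome 11 (chr11:1995166-2004552, minus strand, hg38), was higher in MYC MUT. Its normalized counts were 42, 47.1 and 29.8 in MYC WT and 91.5, 87.5 and 84.8 in MYC MUT. Every MYC MUT library lay above every MYC WT library, and the spread was small in MYC MUT. H19 rose in MYC MUT to 222% of the MYC WT mean (log2 fold change 1.15, SE 0.20, adjusted p = 0.00111, limma), and it was called under every alternative in which it was tested. With a minimum mean of 50, H19 fell under the filter, at 49.6 over the 9 libraries. In the exact two-sided permutation test of 3 libraries against 3, H19, PEG10 and PHLDA2 each reached the smallest p the design allows, 0.1. In bulk RNA, fewer cells with a transcript and less RNA per cell cannot be told apart.

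IGF2, the paternally expressed fetal growth factor that shares an imprinting control region with H19 (chr11:2129112-2158391, minus strand), was barely detected in MYC WT. Its normalized counts were 3.08, 3.37 and 2.89 in MYC WT and 22.2, 22.4 and 22.4 in MYC MUT. Every MYC MUT library lay above every MYC WT library, and the values within each line were close together. These values rest on 9 and 70 reads over the 3 libraries of each line, and the ratio of MYC MUT to MYC WT was 7.2 (95% exact interval 3.59 to 16.4), an interval that covers counting error only. IGF2 fell under the filter, and in the fit over all 37215 genes with a read it was called as higher in MYC MUT (limma adjusted p = 0.000374), where 13.5% of genes were called. The readthrough gene INS-IGF2, which shares exons with IGF2, and INS, the insulin gene beside it, had 0 reads, and the antisense IGF2-AS had 7 reads over the 6 libraries. How reads in shared exons were counted was not given in the sources used here, so the counts of IGF2 and INS-IGF2 may be too low. H19 and IGF2 are read from opposite parental chromosomes where imprinting is intact, and both were higher in MYC MUT.

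PHLDA2, a maternally expressed regulator of placental growth in the neighbouring KCNQ1OT1 cluster (chr11:2928273-2929420, minus strand), was also higher in MYC MUT. Normalized counts were 199, 116 and 101 in MYC WT and 256, 230.4 and 262 in MYC MUT. The lines did not overlap, but MYC WT replicate 1 stood well above the other MYC WT libraries. PHLDA2 rose in MYC MUT to 180.1% of MYC WT (log2 fold change 0.91, SE 0.22, adjusted p = 0.00825, limma).

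Other genes of the cluster gave mixed results. KCNQ1OT1, the antisense noncoding RNA of the cluster, was not called, with 126, 125 and 85.7 normalized counts in MYC WT and 149, 114 and 143 in MYC MUT (log2 fold change 0.28, SE 0.18, adjusted p = 0.256, limma). CDKN1C, a maternally expressed inhibitor of the cell cycle, was not called either, at 165, 262 and 198 in MYC WT and 229, 280.0 and 253 in MYC MUT. Both genes overlapped between the lines. KCNQ1, a potassium channel gene, had 25.6, 55 and 36.6 normalized counts in MYC WT and 102, 112 and 104 in MYC MUT. The lines did not overlap, and KCNQ1 rose to 271% of MYC WT (log2 fold change 1.48, SE 0.28, adjusted p = 0.00187, limma). Whether counting used the strand was not given in the sources used here, so reads of the overlapping KCNQ1 and KCNQ1OT1 may not be fully separated.

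PEG10, a paternally expressed gene derived from a retrotransposon and needed for the placenta (chr7:94656325-94669695, plus strand), was also higher in MYC MUT. Normalized counts were 49.2, 47.1 and 45.2 in MYC WT and 118, 122 and 105.2 in MYC MUT. Every MYC MUT library lay above every MYC WT library. PEG10 rose to 244% of MYC WT (log2 fold change 1.27, SE 0.21, adjusted p = 0.000782, limma). SGCE, the sarcoglycan gene that starts beside PEG10 on the opposite strand and shares its imprint, did not move with it, at 849.8, 1021 and 807 normalized counts in MYC WT and 966, 959 and 838 in MYC MUT (log2 fold change 0.05, SE 0.11, adjusted p = 0.751, limma). The annotations of PEG10 and SGCE overlap. As counting by strand was not given, their reads may not be fully separated.

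GRB10, an adaptor protein that dampens insulin and IGF receptor signalling (chr7:50590063-50793462, minus strand), was by far the most abundant member and was not called. Its normalized counts were 8457, 12320.1 and 10604 in MYC WT and 6975, 7781 and 8791 in MYC MUT, and the lines overlapped. The log2 fold change in MYC MUT was -0.40 (SE 0.13) with a limma adjusted p of 0.032, which met the p threshold but not the size. Leaving out MYC WT replicate 1, the lowest MYC WT library, gave -0.55 and 0.00324, past both limits. That was the 1 alternative of 17 that called GRB10. Over the 17 its adjusted p ran from 0.000912 to 0.125, and its log2 fold change from -0.55 to -0.28. DDC, the dopa decarboxylase gene next to GRB10, named after its values were seen, went the other way in MYC MUT, from 15.4, 12.3 and 11.6 in MYC WT to 27.7, 26.2 and 26.3 normalized counts (log2 fold change 0.99, SE 0.22, adjusted p = 0.00511, limma).

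MEST, a paternally expressed member of the hydrolase fold family (chr7:130486171-130506465, plus strand), had only 20 reads in all 6 libraries of the lines compared. Normalized counts were 2.05, 1.12 and 2.89 in MYC WT and 1.85, 3.89 and 7.79 in MYC MUT, and the lines overlapped. The ratio of MYC MUT to MYC WT in reads was 2.16 (95% exact interval 0.78 to 6.86), so a difference was not detectable at this depth. The antisense MESTIT1 had 0 reads in these 6 libraries. COPG2, which overlaps MEST on the opposite strand, had 52806. Whether counting used the strand was not given, so reads of MEST and COPG2 may not be fully separated. KLF14, a maternally expressed transcription factor gene of the same cluster, was expressed in all libraries and rose in MYC MUT to 182% of MYC WT (log2 fold change 0.85, SE 0.22, adjusted p = 0.0121, limma). Without MYC MUT replicate 2 its adjusted p was 0.0551.

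The remaining 4 members were silent or nearly so in both lines. MEG3, a maternally expressed noncoding RNA on chromosome 14 (chr14:100779410-100861031, plus strand), and NDN, a paternally expressed gene of the Prader-Willi region on chromosome 15 (chr15:23685400-23687305, minus strand), had 0 reads in every library, which allows up to 3 reads per library or 2.77 to 3.37 normalized counts, counting error only. DLK1, the paternally expressed partner of MEG3 (chr14:100725705-100738224, plus strand), had 1 read, in MYC MUT replicate 2. PEG3, a paternally expressed zinc finger gene on chromosome 19 (chr19:56810077-56840728, minus strand), had 2 reads, both in MYC WT replicate 2. No fold was computed for these genes, since both lines were at or under 3 reads per library.

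Their clusters were silent only in part. RTL1 and MEG8 beside MEG3, and ZIM2 beside PEG3, had 0 reads, and SNRPN in the Prader-Willi region had 2. ZIM2 overlaps PEG3, and the gene SNURF lies within SNRPN, in each case on the same strand. How reads shared by overlapping genes were counted was not given in the sources used here, so the counts of these genes may be too low. DIO3, the thyroid hormone-inactivating deiodinase at the far end of the MEG3 cluster, did have reads, with 8.2, 10.1 and 6.74 normalized counts in MYC WT and 19.4, 17.5 and 20.5 in MYC MUT. The lines did not overlap, and DIO3 was called higher in MYC MUT (log2 fold change 1.12, SE 0.33, adjusted p = 0.0213, limma), where leaving out MYC WT replicate 3 or any MYC MUT library raised the adjusted p to between 0.0507 and 0.0705, and DESeq2 gave 0.0566. In the Prader-Willi region, MAGEL2 and MKRN3, neighbours of NDN, did have reads. MAGEL2 had 6.15, 3.37 and 6.74 normalized counts in MYC WT and 13.9, 7.78 and 19.5 in MYC MUT, from 16 and 43 reads. It fell under the filter, and in the fit over every gene with a read it was not called (log2 fold change 1.16, limma adjusted p = 0.0891). MKRN3, a ubiquitin ligase gene that holds back puberty, named after its values were seen, had 4.1, 2.24 and 8.66 normalized counts in MYC WT and 44.4, 35 and 23.4 in MYC MUT. The lines did not overlap, and MKRN3 rose to 685% of MYC WT (log2 fold change 2.65, SE 0.46, adjusted p = 0.00108, limma). DIO3 and MKRN3 averaged under 10 in MYC WT and passed the filter through MYC MUT, where they were high. In the fit over every gene with a read, which does not use that filter, both were called, with limma adjusted p of 0.0489 for DIO3 and 0.00136 for MKRN3.

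A wider list of 53 other imprinted genes was then counted. Of these, 51 had a row in the data, 13 had no read in either line and 29 passed the filter. Among the 29, DIO3 and MKRN3 passed through MYC MUT, where they were high, and PEG13 averaged under 10 in MYC MUT. Of the 29, 7 rose in MYC MUT, 5 fell and 17 were not called, so that 41.4% were called beside the 21.4% of all tested genes. Without replicate 1 of MYC WT, 14 were called, where 4942 of all tested genes were called in place of 4476. The median log2 fold change of the 29 was 0.28. The median size of the change, without its sign, was 0.45 where all tested genes gave 0.27.

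**Figure D3:**
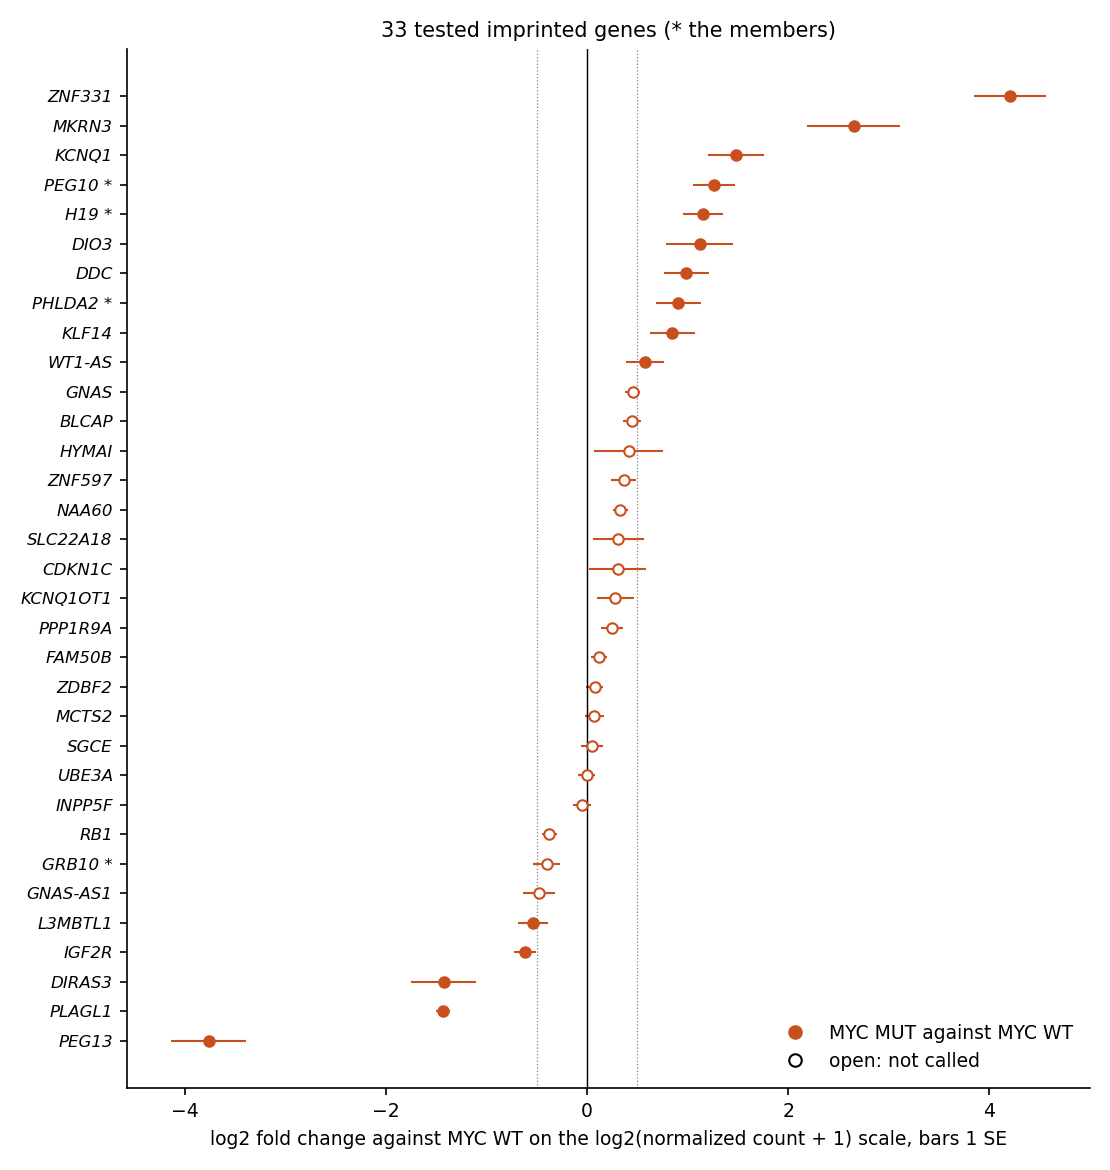
Log2 fold change of MYC MUT against MYC WT (dots, bars 1 SE) of the 33 tested imprinted genes, with the 4 tested members marked by an asterisk. Filled dots were called, and the dotted lines mark the limit of 0.5. ZNF331 and PEG13 lie farthest from 0, and 10 genes are called higher and 5 lower.

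Other imprinted genes called with a mean of at least 50 normalized counts over the 9 libraries are given here, of which ZNF331 and KCNQ1 averaged under 50 in MYC WT. ZNF331, a zinc finger gene on chromosome 19 (chr19:53519527-53580269, plus strand) had 14.4, 10.1 and 10.6 normalized counts in MYC WT and 275, 240.1 and 187 in MYC MUT. Every MYC MUT library lay far above every MYC WT library, and the rise against MYC WT was 20.1-fold (log2 fold change 4.21, SE 0.36, adjusted p = 8.7e-06, limma). PLAGL1, a paternally expressed zinc finger transcription factor of chromosome 6, went the other way, with 5197, 5358 and 4826 normalized counts in MYC WT and 1949.5, 1972 and 1785 in MYC MUT (log2 fold change -1.43, SE 0.07, adjusted p = 2.72e-07, limma). The lines did not overlap. IGF2R, the receptor that clears IGF2 from the cell surface, fell in MYC MUT to 65.2% of MYC WT (log2 fold change -0.62, SE 0.11, adjusted p = 0.00113, limma). L3MBTL1, a chromatin-compacting gene of chromosome 20, fell to 69.4% (log2 fold change -0.54, SE 0.15, adjusted p = 0.016, limma), a call lost without MYC WT replicate 3 (adjusted p = 0.0658) or MYC MUT replicate 3 (0.0712), and with libraries scaled to equal upper quartiles, just inside the limit of 0.5, or to equal totals (log2 fold change -0.46). WT1-AS, antisense to the kidney gene WT1, rose to 151% (log2 fold change 0.58, SE 0.19, adjusted p = 0.0356, limma), and leaving out MYC WT replicate 2 or 3, or MYC MUT replicate 1 or 2, raised its adjusted p to between 0.0765 and 0.149. In the fit over every gene with a read it was 0.0679.

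Below 50 normalized counts, PEG13 and DIRAS3 are named after their values were seen. PEG13, a paternally expressed noncoding RNA of chromosome 8, had 22.6, 12.3 and 14.4 normalized counts in MYC WT and 0.924, 0 and 0 in MYC MUT. MYC MUT held 1 read of it in all, and the ratio of MYC MUT to MYC WT in reads was 0.0193 (95% exact interval 0.000479 to 0.113). DIRAS3, a paternally expressed growth-suppressing GTPase gene, fell in MYC MUT to 35.8% of MYC WT (log2 fold change -1.43, SE 0.32, adjusted p = 0.00512, limma). GNAS, which encodes the stimulatory G protein alpha subunit, and BLCAP, both named after their values were seen, lay in each MYC MUT library above all of MYC WT, with log2 fold changes of 0.45 and 0.45 that did not reach the limit of 0.5. With libraries scaled to equal totals, both passed it at 0.53 and 0.52, and BLCAP did so without MYC WT replicate 1 (0.51).

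Imprinted genes were set beside other tested genes within 5 Mb on either side, to show how far a change was shared by the chromosome around it. Around H19, 98 such genes centred on a log2 fold change of 0.23 (median) when MYC MUT was set against MYC WT, with an interquartile range of -0.03 to 0.54, and H19 itself stood at 1.15. Around PEG10 the 72 neighbours had a median of 0.02. PEG10 lay above 98.6% of them. The 289 neighbours of ZNF331 had a median of 0.02 in MYC MUT, and none was as far above 0 as ZNF331. On chromosome 6 the neighbours themselves were lower in MYC MUT. Around IGF2R, 28 of 43 neighbours fell and their median was -0.71, close to the -0.62 of IGF2R. Around PLAGL1, 26 of 41 fell, with a median of -0.67 beside -1.43 for PLAGL1. HYMAI, an imprinted noncoding RNA within PLAGL1 on the same strand, named after its values were seen, did not fall with it. It was not called (log2 fold change 0.41, SE 0.34, adjusted p = 0.368, limma) and lay above 97.6% of these neighbours. As the counting of shared reads was not given, reads of PLAGL1 and HYMAI may not be fully separated. L3MBTL1 went against its surroundings, where 34 of 75 neighbours rose with a median of 0.42. GNAS and BLCAP, also on chromosome 20, moved with theirs. The neighbours of GNAS had a median of 0.38 and those of BLCAP 0.37, beside 0.45 for each gene. GNAS lay above 62.4% of its neighbours and BLCAP above 60.2%. GNAS-AS1, which overlaps GNAS on the opposite strand, named after its values were seen, went the other way. Each MYC MUT library lay below all of MYC WT, but it was not called (log2 fold change -0.48, SE 0.16, adjusted p = 0.034, limma). It lay above 7.14% of its neighbours. Whether reads of GNAS and GNAS-AS1 were fully separated was not given. The number of chromosome copies was not measured, and its part in these differences was not tested.

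**Figure D4:**
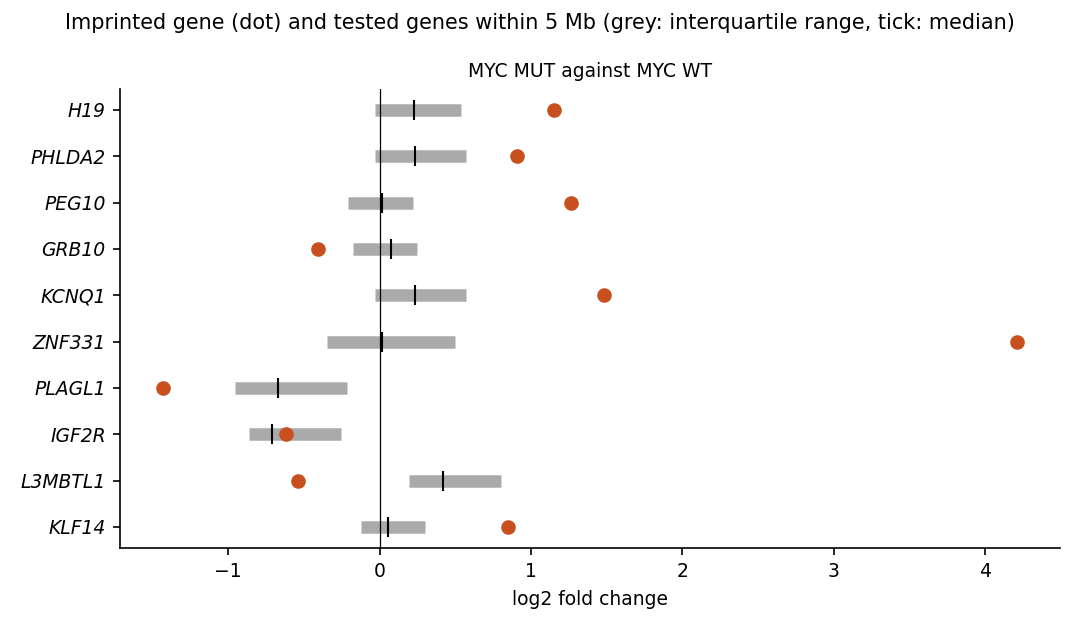
Log2 fold change of 10 imprinted genes (dots) in MYC MUT against MYC WT, beside the tested genes within 5 Mb of each (grey bar, interquartile range; tick, median). ZNF331 and PEG10 lie outside their bars, and IGF2R lies within its bar.

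Genes that keep or read imprints were then examined. Of 12 listed, among them the insulator protein CTCF, the maintenance methyltransferase DNMT1, the corepressor TRIM28 and the zinc finger protein ZNF445, 10 were tested and none was called, beside the 21.4% of all tested genes. With limma, 4 of the 10 had an unadjusted p under 0.05, and edgeR and DESeq2 each called 0. An adjusted p under 0.05 was reached by 3 of the 10, each lower in MYC MUT by less than the limit of 0.5, and they are named after their values were seen. They were the chromatin regulator ARID4B (log2 fold change -0.31, SE 0.08, adjusted p = 0.00957, limma), the histone methyltransferase SETDB1 (log2 fold change -0.24, SE 0.07, adjusted p = 0.0233, limma) and SMCHD1, a chromatin protein of X inactivation (log2 fold change -0.24, SE 0.08, adjusted p = 0.0324, limma). Over the alternatives the adjusted p reached 0.114 for SETDB1 and 0.111 for SMCHD1, and at most 0.0447 for ARID4B. DNMT1 averaged 30109.5 ± 2295 normalized counts in MYC WT and 26332 ± 986 in MYC MUT (SD, n = 3), with a limma adjusted p of 0.0616. ZFP57 itself had at most 4 reads in any library.

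In the IGF pathway, in which IGF2 signals through IGF1R and is held by binding proteins, 12 of 14 listed genes passed the filter. Against MYC WT, 3 rose in MYC MUT and 9 were not called, so that 25% were called beside the 21.4% of all tested genes, a share near the background. IGFBP3, the main carrier of IGFs in blood, was at 48.2, 34.8 and 44.3 normalized counts in MYC WT and 133, 126 and 135 in MYC MUT. The lines did not overlap, and IGFBP3 rose to 310.3% of MYC WT (log2 fold change 1.62, SE 0.34, adjusted p = 0.00325, limma). IGFBP6, which prefers IGF2 over IGF1, rose in MYC MUT (log2 fold change 1.13, SE 0.19, adjusted p = 0.000817, limma), as did IRS2, an adaptor of the insulin receptor (log2 fold change 0.97, SE 0.16, adjusted p = 0.000752, limma). IGF1R was not called, with 6453, 7632 and 5645 normalized counts in MYC WT and 5979, 5467 and 6914 in MYC MUT.

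Because several members are known from placenta and fetal mesenchyme, markers of those cells were read beside them. Of 4 placental markers, CGB3 and PSG1 had 0 reads in all libraries, and the summed level of the list was 4.81 to 19.1 in MYC WT and 38.9 to 63.8 in MYC MUT. GCM1 fell under the filter, with 10.3, 13.5 and 0.963 normalized counts in MYC WT and 6.47, 0 and 3.9 in MYC MUT. Its mean was lower in MYC MUT, but the lines overlapped. The rise in MYC MUT was that of CGA, the shared alpha subunit of glycoprotein hormones (log2 fold change 3.11, SE 0.37, adjusted p = 8.43e-05, limma). CGA, the 1 placental marker tested, averaged 4.52 normalized counts in MYC WT and passed the filter through MYC MUT. In the fit over every gene with a read its limma adjusted p was 0.000128. Of 4 fibroblast markers, COL1A1 was the 1 called (log2 fold change 0.78, SE 0.13, adjusted p = 0.000912, limma). It averaged 1111 normalized counts in MYC WT and 1907 in MYC MUT. DCN was near 0. LUM and PDGFRB were not called, at means of 29.1 and 21.3 in MYC WT and 35.6 and 20.4 in MYC MUT. The sum of the list, mostly COL1A1, was 1088 to 1267 in MYC WT and 1904 to 2006 in MYC MUT. The part of these genes in the levels of the members was not tested. Blood markers summed to at most 8.66 normalized counts and liver and yolk sac markers to at most 22.1, and none of the tested markers of liver and yolk sac (1 gene) and muscle (2 genes) was called.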

How the data were processed

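RNA of HEK293T lines was sequenced in poly(A)-selected, strand-specific libraries, and the 204 samples of other assays in the series were not analysed here. Per the labels and the study's methods, the authors mapped the reads (bwa mem, an aligner without splicing, build hg38), removed duplicates, annotated genes with GENCODE and normalized with DESeq2. An unspliced alignment can lose reads across exon junctions. How reads were counted, and whether by strand, was not given in the sources used here. The deposited values are a signal, gene counts divided by a size factor. In each library 100% of values were whole multiples (tolerance 0.001) of what 1 read is worth, which gave back the reads. Symbols and coordinates came from GENCODE v44 (57754 of 58336 identifiers matched).

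Values were tested with limma 3.58.1 (R 4.3.3) on log2(value + 1) with an intensity trend, for genes with a mean of at least 10. All 9 RNA-seq libraries entered the filter and 1 fit, so that they share an estimate of the spread; 3 of them, and 1 marker gene, are not reported here. With only the lines compared in the fit, 4661 genes were called in place of 4476. On the recovered reads edgeR 4.0.16 called 4554 genes and DESeq2 1.42.0 called 4412. The scripts were tested on simulated data. Intervals are exact binomial at 95% and cover counting error only. The members, lists and tests were chosen with earlier results of these data known. The genes named are the members, their cluster partners, called imprinted genes with a mean of at least 50 and no overlap, up to 3 called genes with the largest change of each further list (none among those that keep imprints) and MYC; IGF1R, DNMT1, CTCF, TRIM28, ZNF445, the markers and those said to be so were chosen after their values were seen. Replicates within a line differed by more than sampling noise. Alternatives covered the pseudocount, filter, scaling, model, tool and each library left out.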

Additional observations from a re-analysis of the deposited data

How the results depend on the processing

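Depth limited the low members, since IGF2 in MYC WT and MEST in both lines rest on a few reads per library and 4 members on at most 3. Over 36 named genes with 604 recomputed values, 577 kept direction and call, 22 lost the call, 4 gained one and 1 changed sign. The sign change was that of SGCE, whose log2 fold change near 0 ran from -0.0195 to 0.151 with 1 library left out. By adjusted p alone 8021 genes were called, and 1648 beyond a log2 fold change of 1, which follows from the limit itself. At a minimum mean of 50, where fewer genes were tested, 3511 were called. Of the other imprinted genes 7 were called at that minimum, and 7 beyond a log2 fold change of 1. Of the members 2 were called at each of these settings, and at a minimum mean of 50 H19 was not tested. With 1 library left out, 3 to 4 members and 9 to 14 other imprinted genes were called, beside 3943 to 4942 of all tested genes. The cause of the changes by left-out library was not tested.

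With the replicate number as a block, 4970 genes, 3 members and 12 other imprinted genes were called, and the call of no named gene changed. The same-numbered libraries of MYC MUT and MYC WT correlated at 0.328, 0.146 and 0.049 in their deviations from the means of their lines, so 1 of the 3 pairs was under the 0.1 asked of every pair. Both replicate 1 libraries and MYC WT replicate 2 were nearest to the library of their own number and the other 3 libraries were not, and the numbers were not taken as pairs.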
